A study of Rattus norvegicus with 12 samples.

Results

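Chemokines are small secreted proteins that draw leukocytes along a gradient, and chemokine receptors are the receptors on those leukocytes and on some stromal cells that read it. Expression of this family was read in the epididymal white adipose tissue (a fat pad beside the epididymis) of Sprague-Dawley rats, all male and 12 in number. The family was taken as every gene whose platform symbol begins with Ccl, Cxcl, Ccr, Cxcr, Xcl, Xcr, Cx3cl, Cx3cr or Ackr followed by a digit. This gave 52 genes of the 14506 that could be tested, namely 19 CC ligands, 12 CXC ligands, 2 ligands of the CX3C and XC classes, 17 receptors and 2 atypical receptors. Each rat had its own Affymetrix Rat Gene 1.0 ST array, on which 1 probe set read each of these genes.

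The rats were fed (n = 4), fasted until phase 2 (n = 4) or fasted until phase 3 (n = 4), and were alike in strain, sex and tissue. No other treatment was named, and the number of days without food and the age of the rats are not given in the sources used here. Phase 2 of a long fast is known as the time when fat stores are used and protein is spared, and phase 3 as the later time when body protein is broken down. All values below are log2 expression levels made by the authors with RMA, so that a difference of 1 stands for a doubling of the signal. The extraction text of the labels speaks of liver, whereas the other labels name adipose tissue.

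Chemokines fall into classes by the spacing of their first cysteines, and the names of the receptors follow the class that they bind. In adipose tissue Ccl2 and its receptor Ccr2 are known for bringing in monocytes, Cxcl1 and Cxcl2 act on neutrophils through Cxcr2, and Cxcl12 holds leukocytes and progenitors in place through Cxcr4. A homeostatic group, Ccl19, Ccl21 and Cxcl13, is best known from lymphoid tissue, where Ccr7 and Cxcr5 read it. Atypical receptors such as Ackr2 and Ackr3 take up chemokines without the usual signal through G proteins.

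All 10 adipocyte markers measured were above the background limit described next in every group, with a mean over the list of 11.6 to 11.7 in the fed rats, 11.75 to 11.8 in phase 2 and 10.49 to 11.21 in phase 3. Of hepatocyte markers 6 of 8 were near background in all groups, as were 6 of 7 markers of epididymis and testis. The medians of the arrays over all probe sets lay between 6.026 and 6.1319. On the third principal component, with 6.57% of the variance, phase 3 rats 2 and 3 lay at 22.65 and -24.88, and the other 10 arrays between -7.23 and 5.77. Phase 3 rat 3 also had the highest lower quartile, 5.161, where the other arrays had 4.846 to 4.987, so its dim genes read somewhat higher.

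Many chemokine genes are dim in a whole fat pad. A group mean was called near background when it was at or below the 95th percentile of 53 olfactory receptor genes, which are taken to be mostly silent in fat. That limit was 5.321 in the fed rats, 5.661 in phase 2 and 5.759 in phase 3. By it 17 members were near background in all 3 groups, and 35 were above the limit in at least 1 group. The 17 were Ccl12, Ccl20, Ccl22, Ccl25, Ccl26, Ccl28, Cxcl2, Cxcl3, Cxcl6, Cxcl11, Xcl1, Ccr1l1, Ccr3, Ccr4, Ccr6, Ccr9 and Cxcr1. Probe sets differ in their response, so the levels of different genes are not set against each other.

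Over the fast the family did not move as 1 block. In phase 2 against fed rats 9 members rose and 3 fell, in phase 3 against fed rats 10 rose and 14 fell, and in phase 3 against phase 2 rats 5 rose and 12 fell (limma, adjusted p below 0.05). In all 28 of the 52 members changed in at least 1 comparison, and 24 in none. The share of all genes called in at least 1 comparison was not counted, so the 28 have no matching share. In the single comparison of phase 3 against fed 45.4% of all genes were called. The largest changes were those of receptors. Cxcr2 and Ccr2, on the cells that answer Cxcl1 and Ccl2, were far lower in phase 3, and Cxcr5 was higher. Among ligands Cxcl13, Ccl19, Ccl21 and Cxcl14 were higher in both fasted groups, Cxcl1 was higher in phase 3, and Cxcl12, Ccl24, Cxcl9 and Ccl7 were lower in phase 3.

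In total, calls were about as frequent among members as on the whole array. Their split by direction differed from that of all genes in phase 2 against fed and in phase 3 against phase 2. These splits rest on 12 and 17 calls, and their difference from all genes was not tested. Members were called in 23.1% of cases in phase 2 against fed, where all genes were called in 25.2% (9.66% higher and 15.5% lower). By direction 17.3% of members rose and 5.77% fell there, and rises made up 75% of the calls among members and 38.4% among all genes. In phase 3 against fed it was 46.2% of members and 45.4% of all genes (21.1% higher and 24.3% lower), and in phase 3 against phase 2 32.7% and 27.9% (12.8% higher and 15.1% lower). In that last comparison 9.62% of members rose and 23.1% fell. Rises made up 29.4% of the calls there among members and 45.8% among all genes. Groups without any overlap between their 4 and 4 rats were seen for 9, 19 and 14 members in these comparisons (17.3%, 36.5% and 26.9%), and for 31%, 41.9% and 26.3% of all genes. The median change of the members was 0.08, 0.09 and -0.02, and that of all genes 0.007, 0.053 and 0.033. The comparisons share their groups, so their counts are not independent of each other.

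The split in phase 3 depended on the scaling, because the arrays' medians over the tested genes were lower by 0.155 in phase 3 and by 0.065 in phase 2 than in fed rats. With each array centred on that median, 21 members were higher and 10 lower in phase 3 against fed, against 6115 higher and 2670 lower genes on the whole array. Other scalings moved it less, with 13 higher and 12 lower members after quantile normalisation and 12 and 14 after cyclic loess. In phase 3 against phase 2 the centring on medians gave 6 higher and 11 lower members, against 3115 and 1683 genes. In phase 2 against fed it gave 10 and 2 members, against 2029 and 1796 genes. Rises then made up 83.3% of the phase 2 calls among members and 53% among all genes. No call of a member turned its direction under any alternative. The count of 14 lower members was 9 without phase 3 rat 1 and 9 without phase 3 rat 4, and the count of 3 in phase 2 was 1 on omitting 1 of fed rat 1 and phase 2 rats 1 and 4. Without phase 3 rats 2 and 3 the counts were 10 higher and 5 lower in phase 2 against fed, 8 and 14 in phase 3 against fed and 4 and 12 in phase 3 against phase 2.

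**Figure D1:**
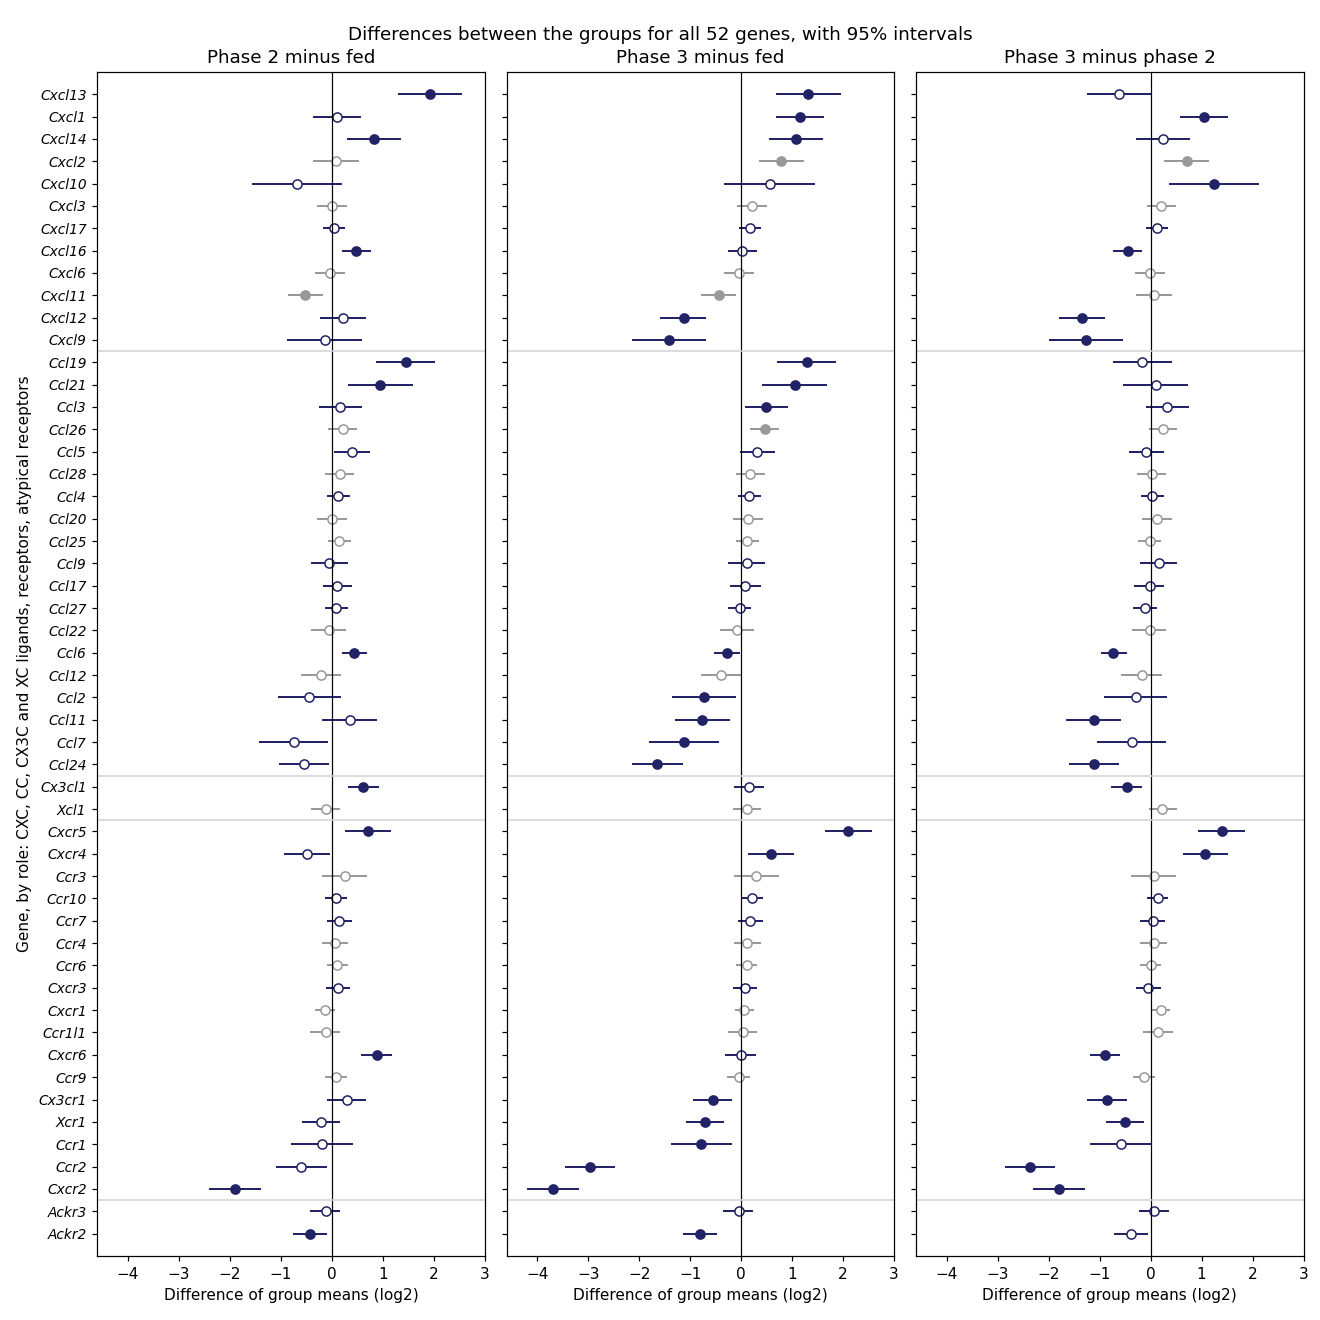
Differences of group means on the log2 scale for all 52 genes, with 95% intervals of the linear model, grouped by role and ordered within a role by phase 3 minus fed. Filled points passed the test, open points did not, and grey marks genes near background in all 3 groups; the longest shift is that of Cxcr2, by -3.69 in phase 3 against fed.

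Cxcr2, the receptor for Cxcl1, Cxcl2 and their relatives, showed the largest change of the family. It read 9.32, 9.08, 9.54 and 9.23 in the fed rats, 7.70, 7.20, 7.46 and 7.24 in phase 2 and 4.88, 6.27, 5.42 and 5.85 in phase 3. The 3 groups did not overlap, and every step was downward. Cxcr2 fell by 1.89 ± 0.227 (SE) in phase 2 (limma adjusted p = 4.26e-05) and by 3.69 ± 0.227 in phase 3 against fed (adjusted p = 1.48e-08). The fold that this gives in phase 3, 12.9, is not exact, since the phase 3 mean of 5.61 ± 0.593 (SD, n = 4) was near background. In a whole tissue, fewer cells that carry a transcript and less of it per cell cannot be told apart.

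Neutrophils are the cells best known for Cxcr2, and most of their markers were dim here. Of 11 neutrophil markers 9 were near background in all groups, and the mean over the list ran from 5.18 to 5.24 in the fed rats, 4.94 to 5.19 in phase 2 and 5.16 to 5.38 in phase 3. Csf3r, the receptor for the growth factor of neutrophils, was at 5.30 in fed rats. Mpo, the myeloperoxidase of neutrophil and monocyte granules, was an exception, as was Lcn2. Mpo read 9.76, 9.56, 9.73 and 9.96 in the fed rats, 7.18, 8.03, 8.45 and 8.22 in phase 2 and 5.57, 5.10, 6.25 and 5.16 in phase 3, a fall of 4.23 ± 0.265 in phase 3 (adjusted p = 1.73e-08). S100a8 and S100a9, the calprotectin subunits of neutrophils, went the other way in phase 3, by 1.95 ± 0.419 and 0.58 ± 0.141 (adjusted p = 0.00152 and 0.00367), from near background in the fed rats. Lcn2 did not pass against fed, at -0.67 in phase 2 and 0.46 in phase 3 (adjusted p = 0.2 and 0.314). It was higher by 1.13 in phase 3 than in phase 2 (adjusted p = 0.0282), a call lost in 7 of 22 alternatives. Over the list, 5 markers rose and 1, Mpo, fell in phase 3 against fed, or 54.5% where 45.4% of all genes were called. All 5 rises were in markers near background in all groups, and the number of markers called ran from 1 to 8 in the alternatives. The part of neutrophil number in the Cxcr2 result was not tested. Cxcr1, the close relative and neighbouring gene of Cxcr2, was near background throughout, with group means of 4.64, 4.50 and 4.70.

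Ccr2, the receptor of inflammatory monocytes for Ccl2 and Ccl7, fell late. Fed rats read 9.17, 9.26, 9.24 and 9.25, phase 2 rats 8.68, 8.67, 8.43 and 8.74, and phase 3 rats 5.63, 7.12, 6.01 and 6.30. The groups did not overlap in any pair. Ccr2 fell by 2.96 ± 0.223 in phase 3 against fed (adjusted p = 9.51e-08) and by 2.37 ± 0.223 against phase 2 (adjusted p = 3.85e-06), while the phase 2 difference of -0.60 ± 0.223 did not pass (adjusted p = 0.0648, with a range of 0.000238 to 0.149 in the alternatives). It passed in 6 of 22 alternatives, among them a fit of only these groups and without phase 3 rat 1 or 2.

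Its ligands Ccl2 and Ccl7, neighbouring genes, were lower as well. Ccl7 read 7.51, 8.21, 8.18 and 7.93 in the fed rats, 6.59, 6.83, 8.04 and 7.37 in phase 2 and 6.27, 7.17, 7.48 and 6.44 in phase 3, and fell by 1.12 ± 0.309 in phase 3 (adjusted p = 0.00862). All 4 phase 3 rats lay below the lowest fed rat, and phase 2 rat 3 lay among the fed rats. Ccl2 read 8.37, 8.74, 8.93 and 9.12 in the fed rats, 8.04, 8.08, 8.97 and 8.34 in phase 2 and 7.28, 8.05, 8.81 and 8.11 in phase 3. Its fall of 0.73 ± 0.279 in phase 3 was at the edge of the test (adjusted p = 0.0462), and phase 3 rat 3 lay within the fed range. That call ended in 15 of 22 alternatives (adjusted p between 0.0506 and 0.14), among them each renormalisation and the omission of 1 of fed rats 2 to 4, phase 2 rats 1, 2 and 4 and phase 3 rats 1, 2 and 4, and with phase 3 rat 1 omitted the difference was -0.47. Ccl12, a further Ccr2 ligand that lies beyond Ccl11 in the same run of genes, was near background in all groups.

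Ccr1, Cx3cr1 and Xcr1, receptors of monocytes, macrophages or dendritic cells, were also lower in phase 3. Of all 17 receptors 5 were lower and 2, Cxcr4 and Cxcr5, higher in phase 3 against fed. That is 41.2% where 45.4% of all genes were called. Ccr1, which reads Ccl3 and Ccl5, read 8.95, 8.18, 8.52 and 8.24 in the fed rats, 7.83, 8.31, 8.34 and 8.63 in phase 2 and 7.72, 8.61, 7.22 and 7.24 in phase 3. Its phase 3 fall of 0.78 ± 0.273 (adjusted p = 0.0317) came from 3 of the 4 rats, and phase 3 rat 2 lay among the fed rats. The call ended in 8 alternatives (adjusted p between 0.0512 and 0.102), among them centred or quantile-normalised arrays and the omission of 1 of fed rats 1 and 3 and phase 3 rats 1, 3 and 4. Cx3cr1, the receptor for Cx3cl1 on monocytes and resident macrophages, fell by 0.56 ± 0.171 against fed and by 0.86 ± 0.171 against phase 2 rats (adjusted p = 0.0148 and 0.00178). Its phase 3 values of 5.28, 5.49, 5.54 and 5.36 all lay below both other groups, and their mean was near background. Xcr1, the receptor of dendritic cells that cross-present antigen, fell by 0.71 ± 0.168 against fed (adjusted p = 0.00303), with phase 2 and phase 3 means of 5.63 and 5.13 that were near background. Its difference from phase 2, -0.50, passed (adjusted p = 0.0372) but was lost in 8 alternatives (0.0541 to 0.115), among them centred arrays and the omission of 1 of phase 2 rats 1 and 4 and phase 3 rats 1, 3 and 4.

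Macrophage markers did not fall together with these receptors. Of 14 measured, 4 rose and 5 fell in phase 3 against fed, or 6 and 2 with centred arrays. That is 64.3% called without the centring, where 45.4% of all genes were. The mean over the list ran from 9.12 to 9.39 in the fed rats, 9.16 to 9.42 in phase 2 and 9.10 to 9.66 in phase 3. Cd163, the haemoglobin scavenger receptor of resident macrophages, rose by 1.18 ± 0.12 and Gpnmb, known from lipid-laden macrophages, by 2.10 ± 0.152. Adgre1, which encodes F4/80, fell by 1.07 ± 0.15 and Aif1 by 1.24 ± 0.158 (adjusted p = 4.05e-05 and 1.65e-05). Of 6 dendritic cell markers 1 rose and 2 fell in phase 3 against fed, or 50% where 45.4% of all genes were called. Their list means were 7.10 to 7.19 in the fed rats, 7.29 to 7.44 in phase 2 and 6.93 to 7.20 in phase 3. The part of these cells in the receptor changes was not tested.

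**Figure D2:**
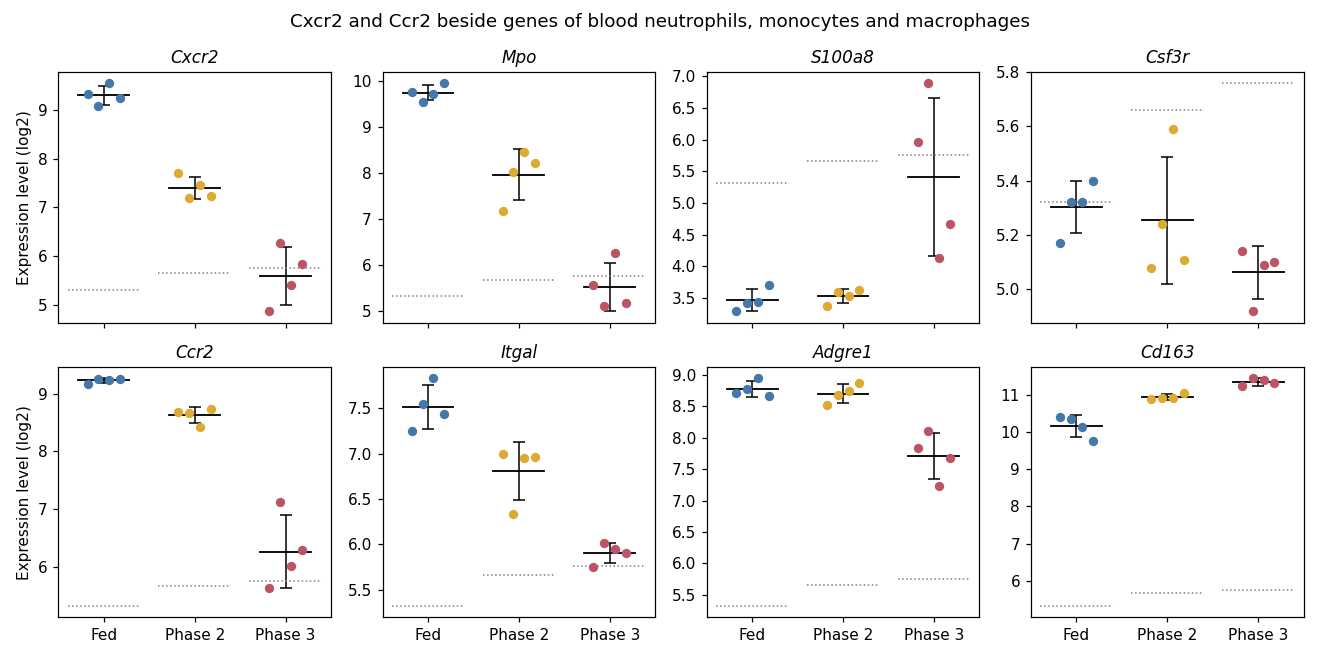
Log2 levels in each of the 12 rats (points), with the group mean and SD (bars) and the near-background limit of each group (dotted), for Cxcr2 and Ccr2 and for genes of neutrophils, monocytes and macrophages. Mpo and Itgal step down with Cxcr2, S100a8 is highest in phase 3, and Cd163 rises while Adgre1 is lower in phase 3; the vertical scales differ.

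Cxcr5, the receptor of B cells and follicular helper T cells for Cxcl13, rose stepwise. Fed rats read 6.56, 6.0, 6.01 and 5.98, phase 2 rats 6.62, 7.38, 6.47 and 6.90, and phase 3 rats 7.95, 8.56, 7.95 and 8.51. All phase 3 values lay above all others, whereas fed rat 1 lay above phase 2 rat 3. The rise was 2.10 ± 0.205 in phase 3 against fed (adjusted p = 1.26e-06) and 1.4 ± 0.205 against phase 2 (adjusted p = 0.000159). That of phase 2, 0.71 ± 0.205 (adjusted p = 0.0206), was lost on omitting 1 of fed rats 2 to 4 and phase 2 rat 2 (adjusted p 0.0538 to 0.0689). Of the 5 B cell markers measured 3 were near background in all groups. In phase 3 against fed 1 rose and 2 fell, a share of 60% where 45.4% of all genes were called. Blk, a kinase of B cells, rose by 0.31 (adjusted p = 0.046), near background and lost in 16 of 21 alternatives. Ms4a1, which encodes CD20, was at 4.80 in fed and 4.33 in phase 3 rats, and Cd22 fell by 1.36 ± 0.0855 in phase 3. The list mean was 4.95 to 5.21 in the fed rats, 5.04 to 5.27 in phase 2 and 4.72 to 4.96 in phase 3.

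Cxcl13, the ligand of Cxcr5, was higher in both fasted groups. It read 8.48, 8.38, 8.01 and 8.50 in the fed rats, 10.63, 10.37, 10.03 and 10.04 in phase 2 and 9.81, 10.39, 8.59 and 9.86 in phase 3. Every fasted rat lay above every fed rat, with phase 3 rat 3 only just above. The rise was 1.93 ± 0.284 in phase 2, or 3.81-fold, and 1.32 ± 0.284 in phase 3 (adjusted p = 0.000224 and 0.00154). Phase 3 differed from phase 2 by -0.61 (adjusted p = 0.134), which passed only without phase 3 rat 2 (0.027) of the 22 alternatives.

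The other homeostatic ligands followed a similar course. Ccl19 read 5.88, 6.60, 5.44 and 5.86 in the fed rats, 7.69, 6.70, 7.81 and 7.38 in phase 2 and 7.39, 7.36, 6.73 and 7.46 in phase 3, and rose by 1.45 ± 0.261 and 1.29 ± 0.261 (adjusted p = 0.000958 and 0.000949). No fasted rat overlapped a fed rat, although fed rat 2 came within a small distance of phase 2 rat 2 and phase 3 rat 3. Ccl21 read 7.38, 7.57, 6.51 and 7.10 in the fed rats, 8.38, 7.41, 8.13 and 8.43 in phase 2 and 8.23, 8.41, 7.40 and 8.69 in phase 3. It rose by 0.95 ± 0.289 in phase 2 and 1.05 ± 0.289 in phase 3 (adjusted p = 0.0269 and 0.00867), with 1 rat of each fasted group inside the fed range. The phase 2 call was lost on omitting 1 of fed rats 3 and 4 and phase 2 rats 1, 3 and 4 (adjusted p 0.0564 to 0.0899). Ccl19 and Ccl21 differed between the fasted groups by only -0.16 and 0.10, with 95% intervals of -0.72 to 0.40 and -0.52 to 0.72. Their receptor Ccr7 passed in no comparison, with group means of 5.72, 5.87 and 5.91.

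Lymphatic endothelium is a known source of Ccl21. Of 5 of its markers 3 rose and 1 fell in each fasted group against fed. That is 80% called in each, where 25.2% of all genes were in phase 2 and 45.4% in phase 3. The list mean was 7.17 to 7.56 in the fed rats, 7.66 to 7.81 in phase 2 and 7.63 to 7.95 in phase 3. Reln rose by 1.49 and 1.79, from a fed mean near background, and Flt4, the receptor for lymphatic growth factor, by 0.46 and 0.76, while Lyve1 was at 10.67, 10.65 and 10.91. Pdpn, which fibroblasts and mesothelium also express, fell. The part of lymphatic vessels in the Ccl19 and Ccl21 results was not tested.

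Cxcl14, a ligand made by epithelia and stroma, was higher in every fasted rat as well. Fed rats read 6.50, 5.96, 6.32 and 6.49, phase 2 rats 7.47, 6.85, 7.37 and 6.89, and phase 3 rats 7.93, 7.81, 6.96 and 6.86. The rise was 0.83 ± 0.235 in phase 2 (adjusted p = 0.0186) and 1.07 ± 0.235 in phase 3 (adjusted p = 0.00178). The phase 2 call was lost on omitting 1 of fed rat 2 and phase 2 rats 1 and 3 (adjusted p 0.0532 to 0.061).

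**Figure D3:**
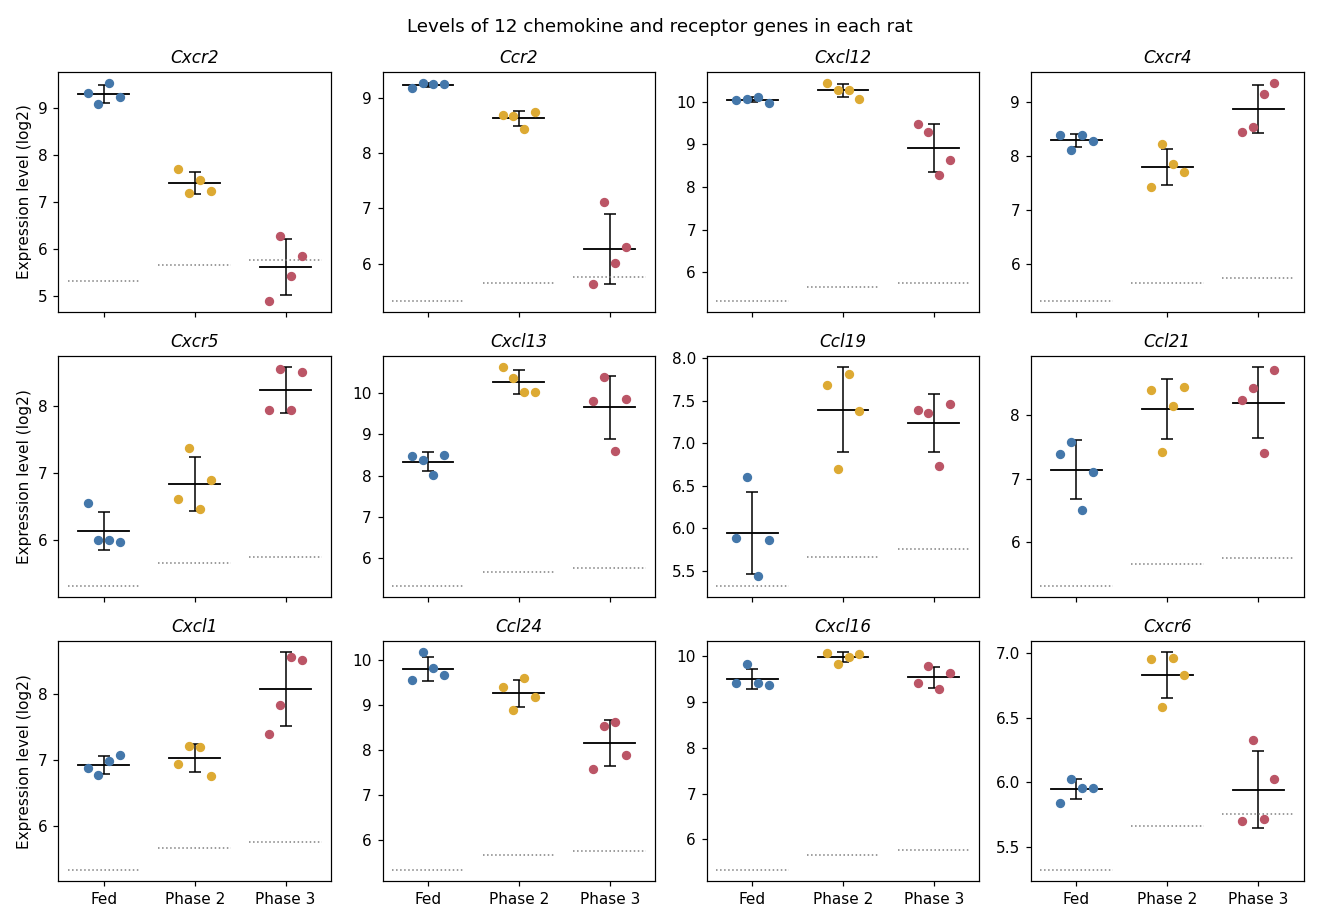
Log2 levels of 12 members in each rat (points), with the group mean and SD (bars) and the near-background limit of each group (dotted); the vertical scales differ between genes. Cxcr2 and Ccr2 step down, Cxcr5 steps up, Cxcl13, Ccl19 and Ccl21 are higher in both fasted groups, and Cxcl16 and Cxcr6 are highest in phase 2.

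Cxcl1 and Cxcl2, neighbouring genes whose products act through Cxcr2, rose in phase 3. Cxcl1 read 6.87, 6.77, 6.99 and 7.07 in the fed rats, 6.94, 7.21, 7.20 and 6.76 in phase 2 and 7.40, 7.83, 8.56 and 8.52 in phase 3. The phase 3 rats all lay above the other 8 rats. Cxcl1 was higher by 1.15 ± 0.212 against fed and 1.05 ± 0.212 against phase 2 (adjusted p = 0.000435 and 0.00196), and its phase 2 difference from fed was 0.11, with a 95% interval of -0.35 to 0.56. Cxcl2 was near background in all groups but moved likewise, with 3.56, 3.79, 3.70 and 3.74 in the fed rats, 3.81, 3.78, 3.85 and 3.67 in phase 2 and 3.92, 4.25, 4.53 and 5.24 in phase 3. It passed against fed (0.79 ± 0.199, adjusted p = 0.00492) and against phase 2 (0.71 ± 0.199, adjusted p = 0.0162), the latter being 0.45 without phase 3 rat 4. Cxcl3 and Cxcl6, close relatives, did not pass in any comparison, and both were near background.

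The promoters of Cxcl1 and Cxcl2 are shown because these ligands moved together, and that of Cxcl6 as a relative that did not pass. Each is the 250 bases before the annotated start on GRCr8, minus strand, from RefSeq, at chr14:17479322-17479571 for Cxcl1, chr14:17467256-17467505 for Cxcl2 and chr14:17596418-17596667 for Cxcl6. Capitals mark matches to a kappa-B-type motif, GGG followed by any 2 bases and TTTCC, on either strand.
Cxcl1: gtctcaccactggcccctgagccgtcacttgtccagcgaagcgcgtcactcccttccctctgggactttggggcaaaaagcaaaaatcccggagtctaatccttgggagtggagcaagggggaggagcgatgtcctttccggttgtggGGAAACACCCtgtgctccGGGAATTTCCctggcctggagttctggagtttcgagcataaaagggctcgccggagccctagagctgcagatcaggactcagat
Cxcl2: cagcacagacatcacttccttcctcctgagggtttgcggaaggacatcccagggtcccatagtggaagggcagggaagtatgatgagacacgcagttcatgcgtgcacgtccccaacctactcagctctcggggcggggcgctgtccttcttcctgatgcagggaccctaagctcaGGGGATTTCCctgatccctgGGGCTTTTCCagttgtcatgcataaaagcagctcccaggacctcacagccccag
Cxcl6: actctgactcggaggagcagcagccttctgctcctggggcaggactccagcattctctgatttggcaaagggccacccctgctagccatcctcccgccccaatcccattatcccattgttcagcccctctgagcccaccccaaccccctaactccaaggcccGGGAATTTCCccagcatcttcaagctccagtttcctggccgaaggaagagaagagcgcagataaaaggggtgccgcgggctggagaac

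The promoters of Cxcl1 and Cxcl2 held 2 matches each, which began at -102 and -84 in Cxcl1 and at -74 and -54 in Cxcl2, counting the last base before the start as -1, and that of Cxcl6 held 1, at -88. Of 27457 promoter windows of the same length 1.28% held a match. Of the 52 members 41 had a promoter in the table, and 6 of these windows held a match, the other 3 being those of Ccl9, Ccl20 and Ccr3. Like Cxcl6, these 3 genes passed in no comparison. A match describes letters and does not show that a factor bound there. Among 18 measured inducers of chemokine genes, fixed as cytokines, receptors and factors of the NF-kappa-B and interferon routes, 7 rose and 2 fell in phase 3 against fed, or 50% where 45.4% of all genes were called, and 12 and 1 with centred arrays. Nfkbia, the inhibitor that NF-kappa-B itself induces, rose by 0.89 in phase 2 and 1.94 ± 0.233 in phase 3 (adjusted p = 9.68e-06), and Rela, Myd88 and Tnfrsf1b rose by 0.61, 0.87 and 0.72 in phase 3. Tlr2, a receptor for bacterial lipoproteins, fell by 0.7 ± 0.132 (adjusted p = 0.000528) and kept that call in all 21 alternatives. Tnf (-0.34, adjusted p = 0.0499) passed at the edge and was lost in 13 of 22 alternatives, and Il1b did not pass (0.16, adjusted p = 0.318). Nor did Nfkb1 (0.12, adjusted p = 0.133) and Nfkb2 (0.09, adjusted p = 0.496), though both passed with centred arrays. The part of NF-kappa-B in the Cxcl1 and Cxcl2 results was not tested.

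Cxcl12 and its receptor Cxcr4 moved in opposite directions between phase 2 and phase 3. Cxcl12 read 10.04, 10.07, 10.11 and 9.97 in the fed rats, 10.44, 10.28, 10.27 and 10.07 in phase 2 and 9.47, 9.28, 8.28 and 8.63 in phase 3. It fell by 1.13 ± 0.201 against fed and by 1.35 ± 0.201 against phase 2 (adjusted p = 0.000314 and 0.00018), with no phase 3 rat inside either other group. Cxcr4 read 8.38, 8.12, 8.38 and 8.27 in the fed rats, 7.42, 8.22, 7.85 and 7.71 in phase 2 and 8.45, 8.54, 9.15 and 9.35 in phase 3. It was higher in phase 3 by 1.07 ± 0.198 against phase 2 (adjusted p = 0.00101) and by 0.58 ± 0.198 against fed (adjusted p = 0.0262), with all 4 phase 3 rats highest. The call against fed was lost on omitting 1 of fed rats 2 and 4 and phase 3 rats 3 and 4, and on omitting phase 3 rats 2 and 3 together (adjusted p 0.0519 to 0.0888). Ackr3, which takes up Cxcl12, did not pass in any comparison, and its 95% interval in phase 3 against fed was -0.33 to 0.22.

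Stromal cells make most Cxcl12, and markers of fibroblasts and progenitors fell with it. Of 11 measured, 9 fell and 2 rose in phase 3 against fed, or 100% where 45.4% of all genes were called. The median was -2.07, and list means were 10.71 to 10.90 in the fed rats, 10.09 to 10.45 in phase 2 and 8.95 to 9.42 in phase 3. In phase 2 against fed 4 of them fell and 1 rose, or 45.5% where 25.2% of all genes were called. Cxcl12 differed there by 0.22 with a 95% interval of -0.21 to 0.65. The part of these cells in the Cxcl12 result was not tested. Dpp4, the protease that cuts and inactivates Cxcl12, is 1 of these markers and is counted among their falls. It is also in the list of signalling and entry genes given below. Dpp4 fell by 1.03 in phase 2 and by 2.13 ± 0.123 in phase 3 (adjusted p = 8.69e-09).

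The ligands of Cxcr3 did not share 1 course, although Cxcl9, Cxcl10 and Cxcl11 are neighbouring genes that interferon-gamma is known to induce. Cxcl9 read 7.94, 8.06, 8.36 and 8.22 in the fed rats, 8.73, 8.73, 7.06 and 7.5 in phase 2 and 6.25, 6.97, 6.50 and 7.23 in phase 3. It fell by 1.41 ± 0.329 in phase 3 against fed (adjusted p = 0.00281) and by 1.27 ± 0.329 against phase 2 (adjusted p = 0.00999). Phase 2 rats split, with rats 1 and 2 above and rats 3 and 4 below the fed range. Cxcl10 read 6.19, 6.77, 7.11 and 6.25 in the fed rats, 5.56, 5.59, 6.18 and 6.23 in phase 2 and 5.88, 6.98, 7.18 and 8.49 in phase 3, the widest spread of any member in 1 group (SD 1.07). Its rise of 1.24 ± 0.403 against phase 2 (adjusted p = 0.0329) was lost in 8 alternatives (0.057 to 0.0999), among them the omission of 1 of phase 2 rats 1 and 2 and phase 3 rats 3 and 4, and was 0.79 with phase 3 rat 4 omitted. Cxcl11, near background throughout, fell by 0.52 ± 0.153 in phase 2 and by 0.44 ± 0.153 in phase 3 (adjusted p = 0.0229 and 0.0284). The phase 2 call of Cxcl11 was lost on omitting 1 of fed rats 1 and 3 and phase 2 rats 1 and 4 (adjusted p 0.0537 to 0.0729). The phase 3 call was lost with centred arrays and on omitting 1 of fed rats 1, 3 and 4 and phase 3 rats 1 and 4 (adjusted p 0.0504 to 0.107). Cxcr3 did not pass, at 6.04, 6.16 and 6.11. Ifng was at 3.89, 3.90 and 3.89.

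Cxcl16 and Cx3cl1, both tethered to the cell membrane, were highest in phase 2, as was Cxcr6, the receptor for Cxcl16 on T and natural killer (NK) cells. Cxcr6 read 5.84, 6.03, 5.96 and 5.96 in the fed rats, 6.95, 6.58, 6.96 and 6.83 in phase 2 and 5.70, 6.33, 5.72 and 6.03 in phase 3. Phase 2 rats stood above all others, with a rise of 0.88 ± 0.131 against fed (adjusted p = 0.000239) and a fall of 0.89 ± 0.131 from phase 2 to phase 3 (adjusted p = 0.000173). Cxcl16 read 9.41, 9.83, 9.42 and 9.37 in the fed rats, 10.07, 9.83, 9.97 and 10.05 in phase 2 and 9.42, 9.78, 9.29 and 9.64 in phase 3. It was higher in phase 2 by 0.47 ± 0.124 than in fed and lower by 0.45 ± 0.124 in phase 3 than in phase 2 (adjusted p = 0.0118 and 0.0143), and only fed rat 2 reached the phase 2 range.

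Cx3cl1, known as fractalkine, read 6.53, 6.70, 6.66 and 6.71 in the fed rats, 7.37, 6.95, 7.58 and 7.16 in phase 2 and 6.68, 6.59, 6.86 and 7.05 in phase 3. It rose by 0.62 ± 0.13 in phase 2 (adjusted p = 0.00289) and was lower by 0.47 ± 0.13 in phase 3 than in phase 2 (adjusted p = 0.0141, and 0.0847 without phase 3 rats 2 and 3). Phase 3 differed from fed by -0.01 in Cxcr6, 0.02 in Cxcl16 and 0.15 in Cx3cl1, with 95% intervals of -0.29 to 0.27, -0.24 to 0.29 and -0.13 to 0.43. Of 17 T and NK cell markers 7 were near background in all groups. In phase 2 against fed limma called 0 of them (3 at an unadjusted p below 0.05, all higher, and 0 to 2 called in the alternatives), with a median difference of 0.18. In phase 3 against phase 2 6 fell, or 35.3% where 27.9% of all genes were called, with a median of -0.25. Their list mean was 5.67 to 5.75 in the fed rats, 5.80 to 5.99 in phase 2 and 5.52 to 5.74 in phase 3, and the part of these cells in the Cxcr6 result was not tested. Endothelial markers, a known site of Cx3cl1, rose in 8 of 11 cases in phase 2 and in 6 in phase 3 against fed, where Eng fell by 0.4 (adjusted p = 0.0111, lost with centred arrays and without phase 3 rats 2 and 3). That is 72.7% and 63.6% called, where 25.2% and 45.4% of all genes were, with list means of 9.06 to 9.21, 9.42 to 9.68 and 9.38 to 9.56.

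The eotaxins Ccl11 and Ccl24 attract eosinophils through Ccr3. Ccl24 read 9.56, 10.18, 9.82 and 9.66 in the fed rats, 9.40, 8.89, 9.59 and 9.18 in phase 2 and 7.58, 8.54, 8.63 and 7.89 in phase 3, and fell by 1.65 ± 0.222 in phase 3 against fed (adjusted p = 2.76e-05) and by 1.1 ± 0.222 against phase 2 (adjusted p = 0.0019). All phase 3 rats lay below all others, and phase 2 overlapped fed. Ccl11 read 5.82, 6.76, 6.24 and 6.28 in the fed rats, 6.59, 6.86, 6.64 and 6.42 in phase 2 and 5.29, 6.27, 5.60 and 4.90 in phase 3, whose mean was near background. It fell by 1.11 ± 0.243 against phase 2 (adjusted p = 0.00333). Its fall of 0.76 against fed (adjusted p = 0.0194) was lost on omitting 1 of fed rat 2 and phase 3 rats 1 and 4 (adjusted p 0.0518 to 0.0669). Ccl26, the neighbouring gene of Ccl24, rose by 0.46 ± 0.122 in phase 3 (adjusted p = 0.00712), but its group means of 4.50, 4.71 and 4.95 were near background, as were those of Ccr3. The near-background limit was itself higher in phase 3, at 5.759 against 5.321 in fed rats.

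Among the remaining CC ligands, Ccl6, made by macrophages in rodents, was highest in phase 2. It read 10.15, 10.17, 10.03 and 10.12 in the fed rats, 10.41, 10.74, 10.49 and 10.60 in phase 2 and 9.71, 10.15, 9.64 and 9.83 in phase 3. It rose by 0.44 ± 0.109 in phase 2 (adjusted p = 0.00816) and fell by 0.73 ± 0.109 from phase 2 to phase 3 (adjusted p = 0.000198), with phase 2 apart from both other groups. Its fall of 0.28 in phase 3 against fed (adjusted p = 0.0464) ended in 13 of 22 alternatives (0.0537 to 0.318), among them centred arrays and the omission of any 1 fed rat or of 1 of phase 2 rats 3 and 4 and phase 3 rats 1, 3 and 4. Ccl3, a ligand of Ccr1, read 6.03, 6.18, 5.91 and 6.21 in the fed rats, 6.03, 6.08, 6.75 and 6.12 in phase 2 and 6.27, 7.09, 6.27 and 6.66 in phase 3. Its rise of 0.49 ± 0.187 in phase 3 against fed (adjusted p = 0.0444) ended in 11 alternatives (0.0524 to 0.128), among them the omission of any 1 fed rat or of 1 of phase 2 rats 2 and 4 and phase 3 rats 2 and 4, and was 0.32 with phase 3 rat 2 omitted.

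Ccl5, a ligand of Ccr1 that T cells make, did not pass, at 0.39 in phase 2 and 0.31 in phase 3 against fed (adjusted p = 0.0805 and 0.111). It passed in 7 of 22 alternatives in phase 2 and in 4 in phase 3, among them centred, quantile-normalised and loess-normalised arrays and, for both, without phase 3 rat 3. Without phase 3 rat 2 it passed in phase 2 too. The other members above the limit in a group that passed in no comparison were Ccl4, Ccl9, Ccl17, Ccl27, Cxcl17, Ccr7, Ccr10, Cxcr3 and Ackr3. With Ccl5 they made 10.

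Ackr2, the scavenger of inflammatory CC chemokines such as Ccl2, was lower in fasted rats. It read 8.53, 8.45, 7.96 and 8.13 in the fed rats, 7.98, 7.46, 7.99 and 7.94 in phase 2 and 7.29, 7.48, 7.38 and 7.68 in phase 3. It fell by 0.81 ± 0.147 in phase 3 (adjusted p = 0.000403), with no overlap with fed. The fall of 0.43 in phase 2 (adjusted p = 0.048) ended in 15 of 22 alternatives (0.0511 to 0.156), among them the 3 renormalisations and the omission of 1 of fed rats 1, 2 and 4, of any 1 phase 2 rat or of phase 3 rat 2. The values of all members above the limit, relative to the fed mean, are drawn rat by rat in the colour map.

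**Figure D4:**
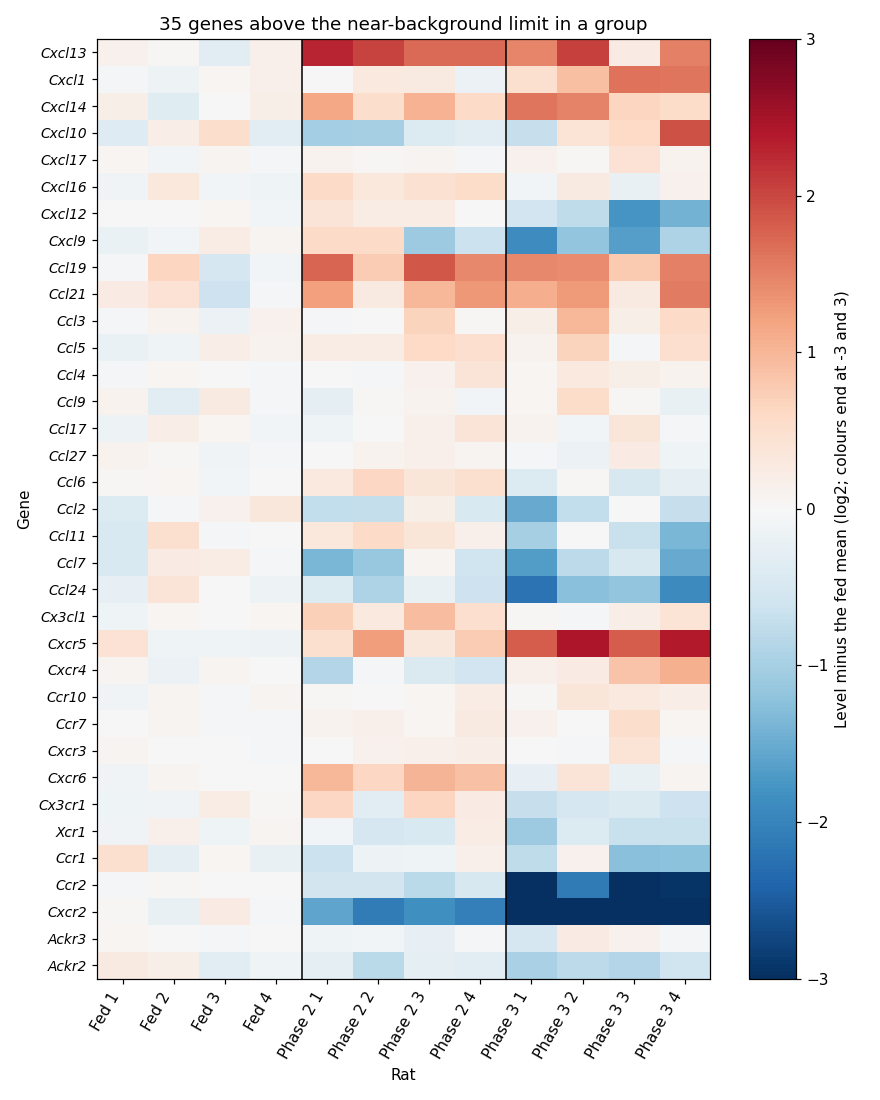
Level of each of the 35 members above the near-background limit in at least 1 group (rows) in each rat (columns), as the log2 difference from the fed mean; red is higher and blue lower, and colours end at -3 and 3. Cxcr2 is at the blue end in all 4 phase 3 rats, and Cxcl13, Ccl19 and Cxcr5 are red in the fasted rats, palest for Cxcl13 in phase 3 rat 3.

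A list of genes that carry the chemokine signal or let leukocytes enter tissue, chosen for known roles, held 47 measured genes. In phase 2 against fed 3 rose and 7 fell, in phase 3 against fed 7 rose and 22 fell, and in phase 3 against phase 2 7 rose and 15 fell. In these comparisons 21.3%, 61.7% and 46.8% of the list were called, and 25.2%, 45.4% and 27.9% of all genes. The median difference in phase 3 against fed was -0.25, and 0.053 over all genes. With arrays centred on their medians that split was 11 higher and 15 lower, with quantile normalisation 8 and 16, and with cyclic loess 7 and 17. Integrins of leukocytes were among the falls in phase 3, with Itgal, a chain of LFA-1, at -1.61 ± 0.149 and Itga4, a chain of VLA-4, at -1.52 ± 0.12 (adjusted p = 7.58e-07 and 1.66e-07). Vcam1, the endothelial and stromal partner of VLA-4, fell by 1.3, Cd44 by 1.35 and the guanine exchange factor Dock2, which links chemokine receptors to Rac, by 1.13. Rac2, which drives the movement of leukocytes, fell by 1.01 and the kinase gene Prkcb by 1.47.

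The 7 genes of the list that rose in phase 3 against fed were Rgs1, Rgs2, Rgs16, Sdc4, Jak2, Stat3 and Pecam1. Rgs1, Rgs2 and Rgs16, which shut off G protein signals, rose by 2.43 ± 0.243, 1.45 ± 0.193 and 1.69 ± 0.155 against fed (adjusted p = 1.69e-06, 2.5e-05 and 7.11e-07), and Rgs2 had already risen by 1.42 in phase 2. Rgs1 rose from a near-background fed mean of 4.16. Sdc4, a heparan sulphate proteoglycan that binds chemokines, rose by 2.32 ± 0.152, with 9.89, 9.75, 9.66 and 9.30 in fed and 11.96, 11.79, 12.01 and 12.14 in phase 3 rats. The kinase gene Jak2, the transcription factor gene Stat3 and the adhesion gene Pecam1 rose by 0.57, 0.57 and 1.08. Pecam1 is also counted among the endothelial markers above.

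Relatives of the family that carry other symbols were measured too. Of 10 such genes 3 fell in phase 2 against fed, and 2 rose and 6 fell in phase 3, which is 30% and 80% where 25.2% and 45.4% of all genes were called. Rarres2, which encodes the chemoattractant chemerin, fell by 1.54 in phase 2 and 2.24 ± 0.146 in phase 3, whereas its receptor gene Cmklr1 rose by 0.45 in phase 3 (adjusted p = 0.000975). Ccrl2, which binds chemerin without signalling, rose by 0.51 in phase 3. Pf4, the CXC ligand of platelets and macrophages, fell by 0.75 ± 0.164 (adjusted p = 0.00171), and Cd74, the receptor for the cytokine Mif, by 1.24 ± 0.142, while Mif differed by -0.28 (adjusted p = 0.268).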

How the data were processed

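The authors deposited log2 expression levels per probe set. They were made with RMA (background correction, quantile normalisation, probe summary), GCOS and Affymetrix Expression Console 1.1, per the submitters' processing notes. RMA settings and scan batches are not given in the sources used here, so batches were not tested, and the number of arrays limits the precision. Of 29215 probe sets, 15310 had 1 gene, 323 several and 13582 none in the platform annotation. The brightest probe set stood for a gene, which left 14506 genes, and all 52 members had 1 probe set each. All 12 arrays entered 1 model with a mean per group (lmFit and eBayes, limma 3.58.1, R 4.3.3), adjusted by Benjamini-Hochberg over the 14506 genes and called below 0.05. The p-values set a group difference against the spread between rats within groups, which also holds array noise, as each rat had 1 array. Phase 3 against fed was also simulated with 14506 genes and normal noise. Each gene had its own SD, taken from its spread within the groups of the real data and the same in all groups. Of 100 genes changed by 1 log2 unit 98% were recovered, and of 100 changed by 0.5 59%, with 7 false calls. In the real data 6589 genes were called and the spread differed between groups, so these rates need not hold there. Named genes were the members called in any comparison and above the near-background limit in a group, plus Ccl2, Ccl5, Cxcl12, Cxcr4, Cx3cl1, Cx3cr1, Cxcl1, Ccr2 and Cxcr2; members at background and genes of other lists are named beside them, chosen after their values were seen. The members and lists were chosen with earlier results of these data known. The 22 alternatives covered normalisation, variance model, samples, filters, probe sets, the replicate number as a block and each rat left out. The titles' replicate numbers were not taken as pairs. The plots and tables were made with Python 3.11.15, pandas 2.3.3 and matplotlib 3.10.9.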

Additional observations from a re-analysis of the deposited data

Results flagged for a closer look

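In 8 of the 156 groups of 4 rats that were looked at, over 52 genes and 3 groups, 1 rat lay far from the other 3, a gap that chance gives in about 1 in 20 groups. Phase 3 rat 3 was the rat in 4 of them. It was low for Ccl19 at 6.73, where the others lay between 7.36 and 7.46, and high for Ccl22 at 5.24 (others 4.54 to 4.62), Ccl28 at 5.33 (4.73 to 4.79) and Cxcr3 at 6.45 (5.99 to 6.02). Ccl22 and Ccl28 were near background, and this array had the highest lower quartile. Phase 2 rat 2 was low for Ackr2 at 7.46 (others 7.94 to 7.99), and phase 2 rat 3 was high for Ccl3 at 6.75 (6.03 to 6.12). Fed rat 2 was high for Cxcl16 at 9.83 (9.37 to 9.42), and fed rat 1 for Cxcr5 at 6.56 (5.98 to 6.01).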

How the results depend on the processing

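Of 53 calls over the 52 genes and 3 comparisons, 38 held under all of their alternatives, 15 were lost in at least 1, and none reversed. Another 27 comparisons that did not pass did so in at least 1 alternative. Leaving out each rat gave 7 to 10 higher and 1 to 4 lower genes in phase 2 against fed, 8 to 12 and 9 to 14 in phase 3 against fed, and 4 to 6 and 11 to 14 in phase 3 against phase 2. For the list of signalling and entry genes it gave 9 to 11, 26 to 31 and 19 to 23 called. The count of lower genes in phase 2 against fed was 6 with only the groups compared and 5 without phase 3 rats 2 and 3, an alternative chosen after seeing the data. The count of higher genes in phase 3 against fed was 21 with arrays centred on their medians. The causes of these shifts were not tested. Same-numbered rats of different groups had correlations of deviations between -0.155 and 0.188, so the numbers were not taken to pair the rats. With the replicate block the counts were 9 higher and 4 lower, 9 and 14, and 5 and 12. Members among the dimmest 40% of genes had no value in the alternative that left those out. Signal near background limits what can be said of 17 of the 52 genes.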
